A study of Homo sapiens with 6 samples.

Results

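The chemokine receptor CXCR4, its ligand CXCL12 and the scavenging receptor ACKR3 (older symbol CXCR7) were examined in H295R/TR SF-1 cells, a human adrenocortical carcinoma subclone. These cells express the nuclear receptor SF-1, encoded by NR5A1, in basal conditions, and the study describes doxycycline as inducing its overexpression. All probe sets that the platform annotation gives to these 3 genes were taken, 8 of the 54613 on the array: 3 for CXCR4, 2 for CXCL12 and 3 for ACKR3, and 0 of them are listed with a further gene. CXCR4 was picked because it was already known to be lower in some of these arrays, so its values are given as a description with no test, while the ligand and the other receptor were added as its known partners. RNA came from 3 cultures labelled doxycycline (Dox), grown for 72 h with 1 µg/mL doxycycline, and from 3 cultures labelled basal, grown for 72 h without it. All 6 cultures carried the same inducible SF-1 construct and stem from 1 subclone. Doxycycline itself and the SF-1 it induces therefore cannot be told apart. The number after a label follows the order in which arrays were deposited and is not in the labels. The study calls the arrays of a condition biological replicates.

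CXCL12 is a homeostatic chemokine that guides migrating cells and holds blood stem cells in the bone marrow. It acts through CXCR4, a receptor coupled to inhibitory G proteins that drives migration and survival signals. ACKR3 binds the same ligand, recruits arrestins without G-protein signalling and removes the chemokine from the surroundings. In the adrenal cortex CXCR4 is best known from aldosterone-producing adenomas, where its abundance is used for imaging.

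The labels did not order the arrays. Over the whole array, Dox 1 and basal 1 were almost the same (SD of their difference over all probe sets 0.134, on the log2 scale), and so were Dox 2 and basal 3 (0.149), with 0 probe sets differing by 2-fold in either pair. Arrays that share a label differed with an SD of 0.258 to 0.452. The titles of Dox 1 and basal 1 are spelled out, and those of the other arrays are coded. The arrays Dox 3 and basal 2 had a narrower spread of signals than the 4 others and are called here an array set of their own. NR5A1, the induced gene, was at 5.55, 6.21 and 6.41 in Dox 1, 2 and 3, and at 5.84, 5.92 and 6.30 in basal 1, 2 and 3. It was read by the probe set 210333_at, and whether that set detects RNA from the construct was not examined. The study reports SF-1 overexpression after doxycycline by protein immunoblot, which these RNA values do not measure. The labelled groups overlapped in NR5A1, with a difference of 0.03 ± 0.24 (SE, adjusted p = 1 with limma). Dox 1 was the lowest of all arrays and basal 3 exceeded Dox 2. With Dox 2 and Dox 3 set against basal 1 and basal 2 within array sets, NR5A1 differed by 0.43 ± 0.14 (SE, adjusted p = 0.13 with limma). It differed by 0.37 and 0.49 in the array pairs, and the fitted difference did not pass the adjusted threshold. Whether labels of some arrays were exchanged was not tested. No array was relabelled, so Dox and basal mean only the label, and the direction of every difference rests on it.

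Adrenocortical identity rested on 11 measured markers of 13 listed. Of these, 7 lay above the array's median signal on all 6 arrays, among them STAR, which carries cholesterol into mitochondria, and the steroidogenic enzymes CYP11A1 and CYP17A1. INHA, the inhibin alpha subunit, lay below it on all 6 arrays and MC2R, the receptor for the pituitary hormone ACTH, on 5. The enzyme HSD3B2 lay below it on 2 arrays and NR5A1 on 1, Dox 1. Values are log2 signals, the median signal of an array lay between 5.56 and 5.60, and a level below it is described as not shown to be above background. A fitted difference that involves such levels is given as fitted and is not a measured size.

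All 3 CXCR4 probe sets divided the arrays in the same way. The probe set with the highest mean signal, 217028_at, was at 8.70, 6.81 and 7.53 in Dox 1, 2 and 3, and at 8.75, 9.45 and 6.84 in basal 1, 2 and 3. The probe set 211919_s_at was at 7.53, 6.35 and 6.31 in Dox 1, 2 and 3, and at 7.69, 7.72 and 6.57 in basal 1, 2 and 3. The probe set 209201_x_at was at 7.51, 6.06 and 6.08 in Dox 1, 2 and 3, and at 7.64, 8.13 and 6.14 in basal 1, 2 and 3. In each of them Dox 1 was high with basal 1 and basal 2, and basal 3 was low with Dox 2 and Dox 3, so the labelled groups overlapped. The widest step between neighbouring arrays, 1.17, 0.96 and 1.37 log2 units in that order of probe sets, lay between these 3 high and 3 low arrays. The order within the low arrays differed between probe sets: Dox 3 exceeded basal 3 in 217028_at and was below it in the others. Suffixes with s or x mark sets whose probes can match other transcripts. Every value of CXCR4 lay above the median signal of its array.

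**Figure D1:**
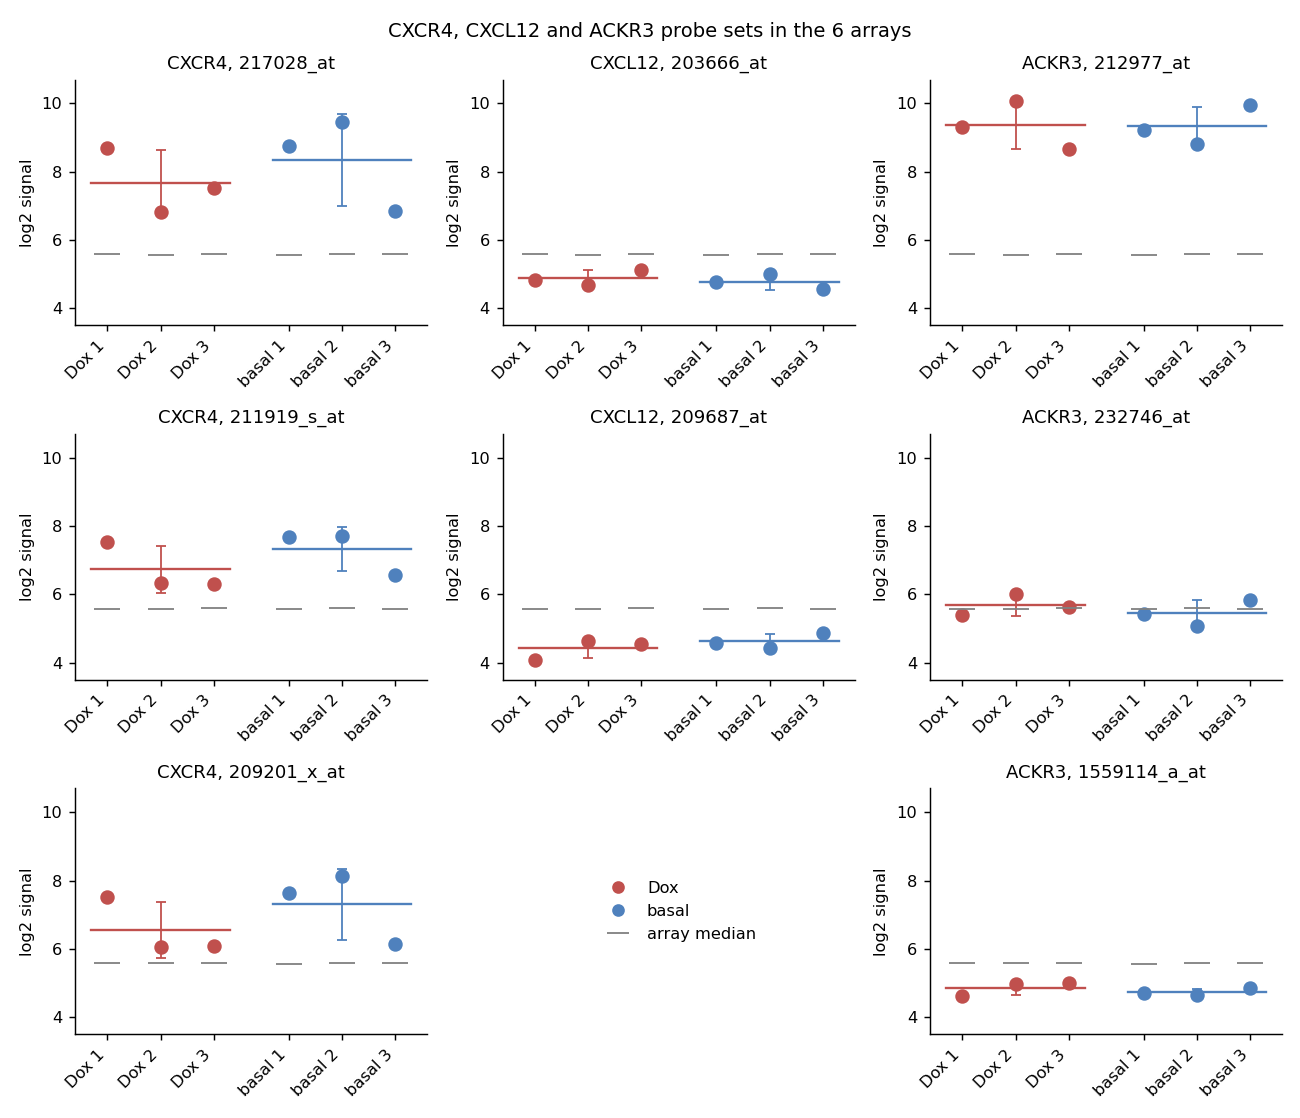
Log2 signal (y axis) of the 8 probe sets of CXCR4, CXCL12 and ACKR3 in each of the 6 arrays (x axis), with Dox arrays in red and basal arrays in blue; lines are the means of 3 arrays, bars their SD, and grey dashes the median signal of each array. In CXCR4 the arrays Dox 1, basal 1 and basal 2 lie above the 3 others, and both CXCL12 probe sets lie below the array median throughout.

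CXCR4 is a compact gene on the minus strand of chromosome 2, at chr2:136114349-136118149 in GRCh38.p14. The window of 300 bases around its most upstream annotated start, chr2:136118100-136118399 on the minus strand, is shown because SF-1 is the factor induced here and the window can be read for its binding letters. Capitals mark the matches to the TATA box letters TATAAA on both strands, which overlap each other. The sequence is from RefSeq, 5′ to 3′.
CXCR4: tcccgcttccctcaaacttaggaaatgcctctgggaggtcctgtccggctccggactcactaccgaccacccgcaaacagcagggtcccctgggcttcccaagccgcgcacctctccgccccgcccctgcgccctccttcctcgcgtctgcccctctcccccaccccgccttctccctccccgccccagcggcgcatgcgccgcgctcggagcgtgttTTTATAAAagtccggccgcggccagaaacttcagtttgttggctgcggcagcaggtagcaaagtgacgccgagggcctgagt
The TATA matches began at bases 219 and 221 of the window. Of 35116 RefSeq windows of the same length, 11.5% held TATAAA. The core letters recognised by SF-1, AAGGTCA, searched on both strands, were in 0 of the 3 start-site windows of CXCR4 and in 3.92% of all windows. The hypoxia response core, ACGTG or GCGTG on either strand, was in 2 of the 3 and in 48.4% of all windows. A match describes letters only, and binding was not measured here.

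Setting the 3 Dox arrays against the 3 basal arrays asks how the axis differed between cultures labelled as given doxycycline and not. NR5A1 RNA, as read by 210333_at, did not differ between these labels beyond its error. CXCR4 averaged 7.68 ± 0.96 in Dox and 8.35 ± 1.35 in basal arrays in 217028_at (SD, n = 3 each), a difference of -0.67 ± 0.73 (SE). In 211919_s_at the means were 6.73 ± 0.70 in Dox and 7.33 ± 0.65 in basal arrays, a difference of -0.60 ± 0.43. In 209201_x_at they were 6.55 ± 0.83 in Dox and 7.30 ± 1.03 in basal arrays, a difference of -0.75 ± 0.59. All 3 mean differences were negative, and each was smaller than the SD within either labelled group. Over the whole array, limma called 0 of 54613 probe sets in this comparison (0%), with 373 at an unadjusted p under 0.05. The labelled groups did not overlap in 3.81% of all probe sets and overlapped in all 8 probe sets of the axis. Leaving out 1 array changed the size of the CXCR4 difference and kept it negative in all 3 probe sets. In 209201_x_at it was -1.23 without Dox 1 and -1.33 without basal 3, against -0.34 without basal 2. In 217028_at it was -1.18 without Dox 1 and -1.42 without basal 3, against -0.12 without basal 2. In 211919_s_at it was -0.998 without Dox 1 and -0.975 without basal 3, against -0.39 without Dox 3.

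The ligand CXCL12 was near the lower end of the signals. Its probe set 203666_at was at 4.82, 4.68 and 5.13 in Dox 1, 2 and 3, and at 4.76, 5.01 and 4.55 in basal 1, 2 and 3. Its probe set 209687_at was at 4.09, 4.62 and 4.56 in Dox 1, 2 and 3, and at 4.57, 4.43 and 4.86 in basal 1, 2 and 3. Both lay below the median signal of all 6 arrays, were not shown to be above background, and overlapped between the labelled groups. The difference was 0.10 ± 0.16 in 203666_at (SE, adjusted p = 1 with limma, exact permutation p = 0.6, n = 3 each) and -0.20 ± 0.18 in 209687_at (adjusted p = 1, exact permutation p = 0.5, n = 3 each). The permutation tests were two-sided and cannot go below 0.1 with 3 arrays a group. The 2 probe sets did not follow the same order, with Dox 3 highest in 203666_at and basal 3 highest in 209687_at. At these signals the values cannot tell whether CXCL12 changed.

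CXCL12 lies on chromosome 10, at chr10:44370165-44385097 in GRCh38.p14. The start-site window of CXCL12, chr10:44385048-44385347 on the minus strand, is shown because it holds the SF-1 core letters AAGGTCA, in capitals, which the 3 windows of CXCR4 did not. No window of ACKR3 was searched.
CXCL12: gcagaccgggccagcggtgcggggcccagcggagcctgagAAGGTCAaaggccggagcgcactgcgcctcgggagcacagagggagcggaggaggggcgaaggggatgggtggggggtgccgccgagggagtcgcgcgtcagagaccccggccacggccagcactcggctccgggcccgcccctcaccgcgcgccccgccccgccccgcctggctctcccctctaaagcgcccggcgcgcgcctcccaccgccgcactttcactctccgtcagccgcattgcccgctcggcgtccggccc
The match began at base 41 of the window and lacked the preceding C of the longer form CAAGGTCA, which 1.28% of all windows held. It is a description of letters beside a transcript that was not shown to be above background in any array.

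The scavenging receptor ACKR3, also on chromosome 2 (chr2:236537122-236582354), was detected clearly by 1 of its probe sets. That set, 212977_at, was at 9.32, 10.08 and 8.67 in Dox 1, 2 and 3, and at 9.24, 8.81 and 9.95 in basal 1, 2 and 3. Its highest arrays were Dox 2 and basal 3 and its lowest Dox 3 and basal 2, which form the array set with the narrower spread. The labelled groups overlapped, with means of 9.35 ± 0.70 in Dox and 9.33 ± 0.58 in basal arrays (SD, n = 3 each). Their difference was 0.02 ± 0.41 (SE, adjusted p = 1 with limma, exact permutation p = 1, n = 3 each). The sign of this difference turned when Dox 2 was left out (-0.34), when basal 2 was left out (-0.24) and when basal 1 was left out (-0.02).

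The other ACKR3 probe sets were dim. The set 232746_at was at 5.40, 6.02 and 5.62 in Dox 1, 2 and 3, and at 5.42, 5.09 and 5.84 in basal 1, 2 and 3. It lay below the array's median on 3 arrays, Dox 1, basal 1 and basal 2, the same 3 arrays that were high in CXCR4. The set 1559114_a_at was at 4.62, 4.96 and 4.99 in Dox 1, 2 and 3, and at 4.72, 4.66 and 4.84 in basal 1, 2 and 3, below the median on all 6. In both sets the 3 higher arrays were Dox 2, Dox 3 and basal 3, the arrays that were low in CXCR4. The labelled difference was 0.23 ± 0.23 in 232746_at (SE, adjusted p = 1 with limma, exact permutation p = 0.5, n = 3 each) and 0.12 ± 0.13 in 1559114_a_at (adjusted p = 1, exact permutation p = 0.4, n = 3 each).

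Over the 6 arrays, the CXCR4 probe sets correlated with each other at Pearson r of 0.93 to 0.98 and with ACKR3 232746_at at -0.97 to -0.86. With the brightest ACKR3 set, 212977_at, the correlations were -0.67 to -0.38. These are descriptions over 6 arrays that share near-identical pairs, so the number of independent points is smaller than 6. The ranges of the probe sets are also given as a description. The range over the 6 arrays was 2.64, 1.41 and 2.07 log2 units in CXCR4 217028_at, 211919_s_at and 209201_x_at, where the median over all probe sets was 0.45. A larger range was found in 0.21%, 2.68% and 0.62% of all probe sets, in the same order, and in 2.70% for ACKR3 212977_at. CXCR4 was picked with its lower values in some of these arrays known, so its wide range follows in part from that choice. For CXCL12 the range was 0.58 in 203666_at and 0.77 in 209687_at, exceeded by 32.1% and 16.6% of all probe sets.

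Because Dox 1 matched basal 1 and basal 3 matched Dox 2, the arrays Dox 2 and Dox 3 were also compared with basal 1 and basal 2, with the array set as a block and every label kept (n = 2 each). This further comparison was chosen from these data, so it describes CXCR4 and is no independent evidence for the other genes. Of the arrays kept, only basal 1 has a spelled-out title, so label and title style are partly mixed and the pair Dox 2 and basal 1 crosses styles. What the title style stands for is not given. CXCR4 was lower in Dox 2 and Dox 3 in all its probe sets, by -1.93 ± 0.12 in 217028_at, -1.38 ± 0.13 in 211919_s_at and -1.81 ± 0.15 in 209201_x_at (log2, SE), or 3.81-fold, 2.60-fold and 3.51-fold lower. Within an array set, the pair Dox 2 and basal 1 differed by -1.94 in 217028_at, -1.34 in 211919_s_at and -1.58 in 209201_x_at, and the pair Dox 3 and basal 2 by -1.92, -1.41 and -2.04. The near-identical pairs of opposite label differed little: Dox 1 minus basal 1 was -0.05, -0.15 and -0.13 and Dox 2 minus basal 3 was -0.03, -0.23 and -0.08 in the same order of probe sets. When basal 1 and Dox 2 were left out in place of basal 3 and Dox 1, CXCR4 differed by -0.03 ± 0.87 in 217028_at, -0.22 ± 0.56 in 211919_s_at and -0.34 ± 0.79 in 209201_x_at, each within its error. The size of the CXCR4 difference therefore rested on which arrays were kept.

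**Figure D2:**
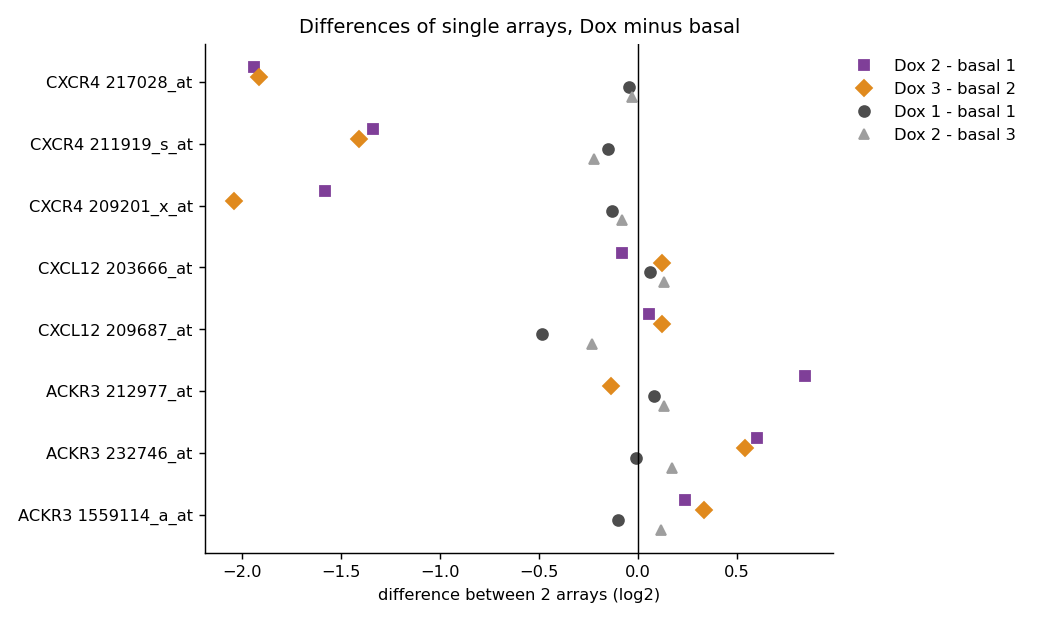
Difference in log2 signal between 2 single arrays (x axis) for each probe set of CXCR4, CXCL12 and ACKR3 (y axis); squares and diamonds are the array pairs of the further comparison, circles and triangles the near-identical pairs of opposite label. CXCR4 differs by -1.34 to -2.04 in the first kind of pair and by -0.23 to -0.03 in the other kind, and ACKR3 212977_at differs by 0.84 in the pair Dox 2 and basal 1 and by -0.14 in the pair Dox 3 and basal 2.

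In the same further comparison limma called 4.15% of all probe sets (2.07% higher and 2.09% lower in Dox), on 1 residual degree of freedom. Of the 5 probe sets of CXCL12 and ACKR3, 1 passed: ACKR3 232746_at was higher by 0.57 ± 0.14 (SE, adjusted p = 0.034), at 6.02 and 5.62 in Dox 2 and Dox 3 and at 5.42 and 5.09 in basal 1 and basal 2. Both basal values lay below the array median, so the size of this difference was not measured. The call was lost without the block and when basal 1 and Dox 2 were left out instead (adjusted p = 1 in each case, differences of 0.57 and 0.05). The brightest set of the gene, 212977_at, did not pass (0.35 ± 0.17, adjusted p = 0.40) and differed in sign between array sets, at 0.84 for Dox 2 minus basal 1 and -0.14 for Dox 3 minus basal 2. ACKR3 1559114_a_at was at 0.29 ± 0.14 (adjusted p = 0.40). The CXCL12 sets were at 0.02 ± 0.14 and 0.09 ± 0.14 (adjusted p = 0.98 and 0.88). For genes by their brightest probe set, the share called was 6.43%, with 3.16% higher and 3.27% lower.

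Of the other ligands of these receptors and the proteins that process or hold them, 17 genes were measured. In the further comparison 1 was higher and 1 lower, where 3.16% of all genes were higher and 3.27% lower. Their median difference was 0.02, and that of all genes was -0.01. DPP4, the peptidase that cuts the amino end of CXCL12 and so inactivates it, was lower by -0.999 ± 0.14 (adjusted p = 0.00055), at 4.93 and 4.63 in Dox 2 and Dox 3 against 5.98 and 5.58 in basal 1 and basal 2. All 3 probe sets of DPP4 passed, from -0.999 to -0.81. Its level in Dox 1 was 5.81 and in basal 3 it was 5.13, and it lay below the array median on 4 of the 6 arrays, Dox 2 and Dox 3 among them, so the size of its difference was not measured. GPC1, a cell-surface proteoglycan whose heparan sulfate chains hold chemokines, was higher by 0.51 ± 0.12 (adjusted p = 0.026), while its other probe set was at -0.01. MIF, a further CXCR4 ligand, lay between 13.87 and 13.94, and CXCL11, which ACKR3 also binds, lay between 2.85 and 3.08, not shown to be above background.

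Among 27 measured regulators of receptor desensitization, trafficking and G proteins, 0 were higher and 2 lower, with a median of -0.04. Over all genes the shares were 3.16% higher and 3.27% lower. GNG2, a G-protein gamma subunit, was at 8.59 and 7.15 in Dox 2 and Dox 3 against 10.24 and 8.31 in basal 1 and basal 2, a difference of -1.40 ± 0.14 (adjusted p = 1.93e-05). It stood at 10.28 in Dox 1 and 8.57 in basal 3, so its arrays divided by both the array set and the CXCR4 pattern. Of its 4 probe sets only that one passed, and the range over them was -1.40 to 0.06. RGS2, which shortens G-protein signals, was lower by -0.70 ± 0.11 (adjusted p = 0.0010), at 9.94 and 9.45 in Dox 2 and Dox 3 against 10.72 and 10.07 in basal 1 and basal 2. The receptor kinases GRK2, GRK3, GRK5 and GRK6, the arrestin ARRB1 and the ubiquitin ligase ITCH, which sends CXCR4 to lysosomes, did not pass.

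Of 28 measured signalling and migration effectors, 2 were higher and 0 lower, with a median of 0.06. Over all genes the shares were 3.16% higher and 3.27% lower. VAV2, a guanine nucleotide exchange factor, was higher by 0.75 ± 0.11 (adjusted p = 0.00064), at 11.34 and 11.22 in Dox 2 and Dox 3 against 10.79 and 10.28 in basal 1 and basal 2. Of the 3 VAV2 probe sets 2 passed, and the range over them was 0.19 to 0.75. RAC2, a GTPase best known from blood cells, was higher by 0.61 ± 0.15 (adjusted p = 0.028), at 5.92 and 6.25 in Dox 2 and Dox 3 against 5.47 and 5.48 in basal 1 and basal 2, which lay below the array median. Its other probe set was at 0.01.

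Of 20 measured transcription factors and cofactors known to act on these 3 genes, 2 were higher and 0 lower, with a median of -0.04. Over all genes the shares were 3.16% higher and 3.27% lower. EPAS1, the hypoxia-inducible factor HIF-2α, was at 10.06 and 9.94 in Dox 2 and Dox 3 against 7.67 and 7.16 in basal 1 and basal 2, a difference of 2.59 ± 0.13 (adjusted p = 3.60e-08). Only 1 of its 3 probe sets passed, and the range over them was -0.10 to 2.59. SNAI2, a repressor of epithelial genes, was higher by 0.99 ± 0.09 (adjusted p = 1.44e-05), at 11.80 and 11.37 in Dox 2 and Dox 3 against 10.85 and 10.35 in basal 1 and basal 2. In the arrays left out, EPAS1 was at 7.65 in Dox 1 and 10.14 in basal 3, and SNAI2 at 10.88 in Dox 1 and 11.82 in basal 3. HIF1A, the other main hypoxia-inducible factor, lay between 12.73 and 13.26 and differed by -0.01.

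**Figure D3:**
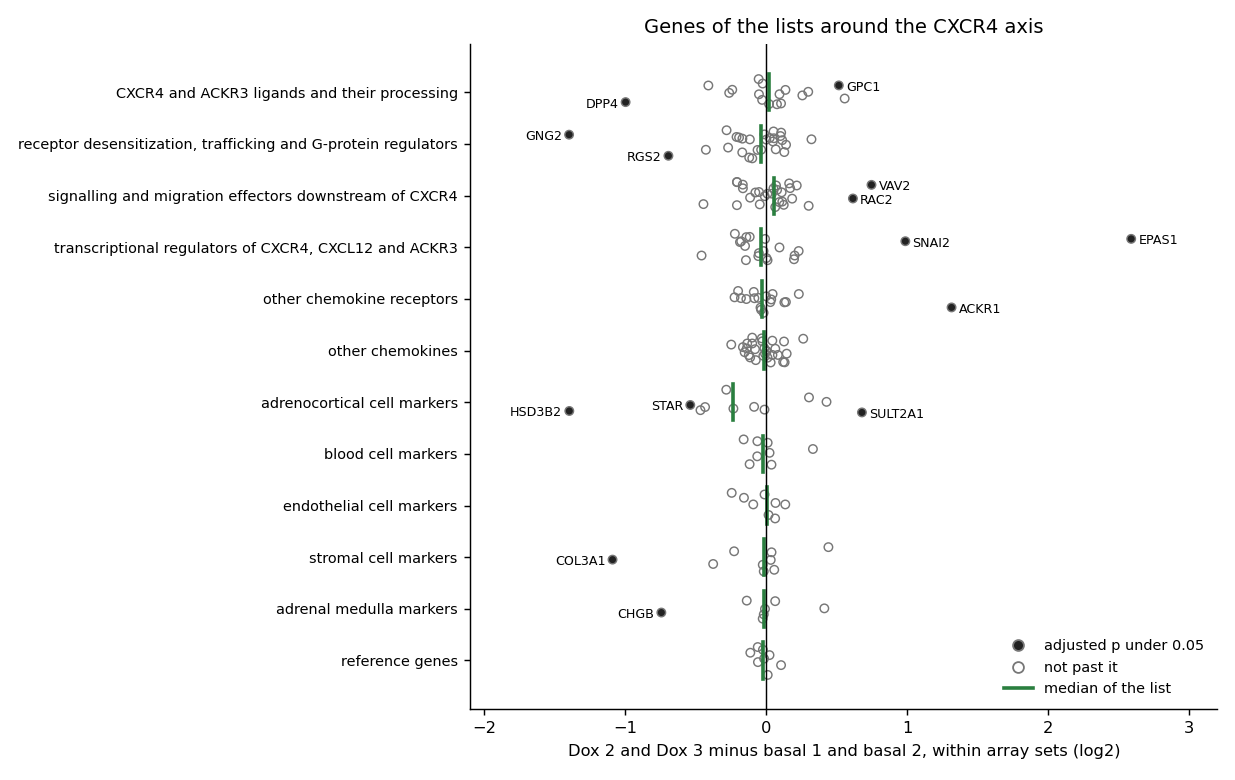
Log2 difference of Dox 2 and Dox 3 against basal 1 and basal 2 within array sets (x axis) for the measured genes of 12 lists (y axis), each gene by its brightest probe set; filled points passed the adjusted threshold of 0.05 and green bars are list medians. EPAS1, at 2.59, is farthest to the right, and the chemokine list holds 0 filled points.

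Among 18 other chemokine receptors measured, 13 lay below the array median on all 6 arrays. In the further comparison 1 was higher, as were 3.16% of all genes. That was ACKR1, the Duffy antigen, which like ACKR3 binds chemokines without G-protein signalling. It was at 6.74 and 6.60 in Dox 2 and Dox 3 against 5.76 and 4.96 in basal 1 and basal 2, a difference of 1.31 ± 0.17 (adjusted p = 0.00021), and at 5.41 in Dox 1 and 6.88 in basal 3. The basal 2 value lay below the array median, as did that of Dox 1, so the size of this difference was not measured. Of 29 other chemokines measured, 23 lay below the array median on all 6 arrays. With limma 0 passed, where 6.43% of all genes did. The highest were CX3CL1, a membrane-bound chemokine, between 8.22 and 8.48, and CCL28, a mucosal chemokine, between 6.50 and 7.18.

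Markers of other cell types lay on both sides of the array median. For blood cells 8 of 10 markers were measured, 5 lay below it and 2 above it on all arrays, and the summed signal on the linear scale was 282 to 302 in Dox and 294 to 303 in basal arrays. The highest were HBB, a haemoglobin chain, at 6.50 to 6.64 in Dox and 6.53 to 6.62 in basal arrays, and CD3E, a part of the T-cell receptor complex, at 5.77 to 6.09 in Dox and 5.73 to 6.13 in basal arrays. PTPRC, the common leukocyte antigen, was at 3.04 to 3.22 in Dox and 3.07 to 3.41 in basal arrays. For endothelial cells the sum over 8 markers was 282 to 304 in Dox and 288 to 304 in basal arrays, and 5 lay below the median and 2 above it on all arrays. PECAM1, an adhesion molecule, was at 6.06 to 6.36 in Dox and 6.01 to 6.26 in basal arrays, CLDN5, a tight junction protein, at 5.84 to 5.92 in Dox and 6.01 to 6.16 in basal arrays, and CDH5, the endothelial cadherin, at 3.62 to 3.80 in all. The labelled groups did not overlap in CLDN5, as in 3.81% of all probe sets. None of these blood and endothelial markers passed in the further comparison, where 6.43% of all genes did. Of 9 stromal markers, 3 lay below the median and 4 above it on all arrays, as did 3 and 4 of 7 measured adrenal medulla markers. Among the stromal markers COL3A1, a fibrillar collagen, was lower by -1.09 ± 0.21 (adjusted p = 0.0057). Of its 5 probe sets 2 passed, and the range over them was -1.32 to -0.07. Among the medulla markers CHGB, a chromogranin of secretory granules, was lower by -0.75 ± 0.14 (adjusted p = 0.0072). Dox 2 minus basal 1 was -1.67 in COL3A1 and -1.01 in CHGB, and Dox 3 minus basal 2 was -0.51 and -0.48. COL3A1 in Dox 3, at 5.47, lay below the array median. The summed signals of the 2 lists were 795 to 1184 in Dox and 869 to 1203 in basal arrays for stroma, and 519 to 907 in Dox and 556 to 900.4 in basal arrays for medulla. TH and PNMT, the first and the last enzyme of adrenaline synthesis, were at 3.64 to 3.73 and at 6.37 to 6.85 over all arrays, and SYP, a protein of secretory vesicles, at 6.81 to 7.45. All 6 cultures stem from 1 subclone of a cell line, so these signals are no measure of how many cells of such types were present. Whether these markers relate to the CXCR4 values was not tested. Fewer cells that express a gene and less RNA per cell cannot be told apart in bulk RNA.

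Of the adrenocortical markers, HSD3B2, which makes progesterone from pregnenolone, was lower in the further comparison by -1.40 ± 0.18 and STAR by -0.54 ± 0.09, while SULT2A1, which sulfates adrenal androgens, was higher by 0.68 ± 0.11 (adjusted p = 0.00021, 0.0025 and 0.0015 in that order). HSD3B2 was at 6.36, 5.51 and 6.07 in Dox 1, 2 and 3, and at 6.49, 7.89 and 5.0 in basal 1, 2 and 3. Dox 1 was thus on the side of basal 1 and basal 3 on the side of Dox 2 in this gene too. HSD3B2 lay below the array median in Dox 2 and basal 3, so the size of its difference was not measured.

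Genes with a pattern like that of CXCR4 were sought among 1837 genes with a range of at least 1 log2 unit, by Pearson r with 217028_at over the 6 arrays. The 6 most alike were LEMD1-AS1 (r = 0.999), an antisense transcript, NPTX2 (0.997), a secreted neuronal pentraxin, MT3 (0.994), a metallothionein, OAS1 (0.994), an interferon-induced antiviral enzyme, FRY (0.994) and BHLHE41 (0.994), a clock repressor. With the other CXCR4 probe sets included, r was 0.90 or more for all 6. Their ranges, 1.14 to 1.88 log2 units, were smaller than that of CXCR4 (2.64). The 4 most opposed were EIF4A3 (r = -0.997), a helicase of the exon junction complex, TMOD1 (-0.997), which caps actin filaments, KDM7A-DT (-0.996) and FOXO6 (-0.996), a forkhead factor. In all, 51 genes had r above 0.95 and 120 below -0.95. These values were selected from many genes over 6 arrays with near-identical pairs, and nothing on shared control follows from them.

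**Figure D4:**
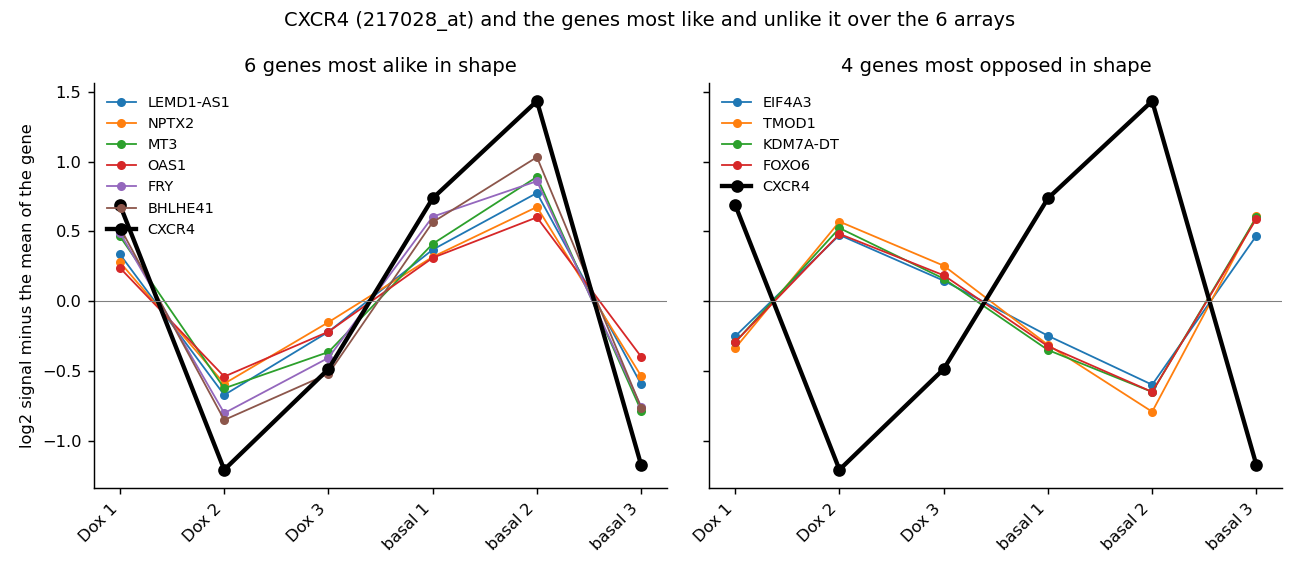
Log2 signal minus the mean of the gene (y axis) in the 6 arrays (x axis) for CXCR4 217028_at (black) with the 6 genes of highest r (left) and the 4 of lowest r (right). CXCR4 spans 2.64 log2 units, and the 6 similar genes 1.14 to 1.88.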

How the data were processed

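Total RNA of 6 cultures was hybridised to Affymetrix HG-U133 Plus 2.0 arrays, 3 labelled Dox and 3 labelled basal. The study describes 3 biological replicates a condition and names no pairing. The deposited log2 values were made by the authors, whose processing notes name GCRMA, a background correction by probe sequence with summary per probe set, and whose methods name Affymetrix console software. No source used here says whether all arrays went through GCRMA together. The number of arrays limits the precision.

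Values were used as deposited. All 54613 probe sets were fitted in limma 3.58.1 under R 4.3.3 (lmFit, eBayes with a mean-variance trend), two-sided, with Benjamini-Hochberg adjustment over all probe sets and a threshold of 0.05. The fit was tested on simulated data. Of the probe sets, 41091 had 1 gene symbol, 1801 several and 11721 none; 0 symbols changed when checked through gene identifiers. List genes (12 lists) were represented by their brightest probe set (mean of the 6 arrays). SE values come from limma's moderated variance.

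Members, lists and tests were chosen with earlier results of these data known. Named genes were, per list except reference genes, up to 4 past the threshold in the further comparison by adjusted p, or otherwise the 2 brightest, and the 6 most and 4 least similar to CXCR4 by r. Other genes named in the text (GRK2, GRK3, GRK5, GRK6, ARRB1, ITCH, MIF, CXCL11, HIF1A, PTPRC, CDH5, TH, PNMT, SYP, INHA, MC2R, CYP11A1, CYP17A1) were chosen after their values were seen. The 8 measured reference genes had 0 calls, with differences of -0.11 to 0.10 in the further comparison. Promoter windows are from RefSeq (GRCh38.p14). Alternatives changed the scaling, the block, the filter on low signals, the features, the arrays and the thresholds. Figures used matplotlib 3.10.9 under Python 3.11.15.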

Additional observations from a re-analysis of the deposited data

How the results depend on the processing

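No paired analysis was possible because the labels give the groups no shared replicate numbers; the array set block came from the spread of the values and the label style block from the titles. With all 6 arrays, limma called 0 probe sets under each alternative and with any 1 array left out; the study's own cut-offs gave 0 with all arrays, 41 without Dox 1 and 48 without basal 3. The further comparison called 2269 probe sets, 1383 genes with 1 probe set per gene and 480 probe sets at those cut-offs. It called 0 without the array set block (1580 at an unadjusted p under 0.05), 0 with label style (titles spelled out or coded) as the block (1901) and 0 with basal 1 and Dox 2 left out instead (518); the cause was not tested. The 9 called genes of the 5 lists of ligands, regulators, effectors, transcription factors and chemokine receptors were not called without that block. For CXCR4, the further comparison gave -1.93 in 217028_at, -1.38 in 211919_s_at and -1.81 in 209201_x_at. With all 6 arrays the differences were -0.67, -0.60 and -0.75 in that order. Leaving out 1 array gave -1.42 to -0.12 in 217028_at, -0.998 to -0.39 in 211919_s_at and -1.33 to -0.34 in 209201_x_at. For CXCL12, 203666_at ranged from -0.0242 to 0.22 without 1 array (negative without Dox 3, and -0.01 without basal 3), was -0.11 in the further comparison with the label style block, and the mean of both probe sets was -0.0483. CXCL12 209687_at turned to 0.0881 in the further comparison and to -0.32 with basal 1 and Dox 2 left out instead. ACKR3 212977_at ranged from -0.34 to 0.37 without 1 array and was -0.38 with basal 1 and Dox 2 left out. ACKR3 232746_at reached 0.57 in the further comparison, and was not called at 0.73 with the label style block. No gene was shared between the 6 genes most like CXCR4 by r and the 6 by root mean square difference.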

Other observations

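Ranked by the root mean square difference of centred values, which takes the size of the pattern into account as r does not, the 6 genes closest to CXCR4 217028_at were COL15A1, a basement membrane collagen (0.17 log2 units), CCN3, a secreted matrix protein (0.18), CYP19A1, the aromatase (0.24), VEGFC, the lymphatic growth factor (0.25), DUSP6, a phosphatase that inactivates ERK (0.27), and BRINP2 (0.29). COL15A1 was at 8.61, 7.06 and 7.59 in Dox 1, 2 and 3, and at 8.64, 9.80 and 6.89 in basal 1, 2 and 3. DUSP6 was at 8.89, 7.12 and 7.87 in Dox 1, 2 and 3, and at 8.91, 10.41 and 7.11 in basal 1, 2 and 3. In both genes, as in all 3 CXCR4 probe sets, basal 2 was the highest array. VEGFC lay below the array median in Dox 2, Dox 3 and basal 3 (5.29, 5.29 and 4.95). CYP19A1 lay below it in Dox 2 and basal 3 (5.14 and 4.93). Of the 7 CYP19A1 probe sets only the brightest was ranked.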
